A study of Saccharomyces cerevisiae with 21 samples.

Results

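The phosphate regulon of budding yeast (Saccharomyces cerevisiae) is described here through PHO5 and 9 related genes, across 7 strains, 6 with changes in Spt6 or in RNA polymerase II and WT. The 10 genes, PHO5, PHO3, PHO11, PHO12, PHO84, PHO89, PHO8, SPL2, VTC3 and PHM8, were taken by symbol, and all 10 were found among the 5823 genes of the full-gene count table and the 5894 genes of the mid-gene table. Spt6 is a histone chaperone and elongation factor that binds the linker between the core of Rpb1, the catalytic subunit of the polymerase, and its C-terminal repeats. The spt6-R and spt6-KK changes were studied singly and together (spt6-R,KK), as were the rpb1-TPY and rpb1-FSP changes (together rpb1-TPY,FSP), each set against WT. There were 3 libraries per strain and 21 in all, from cells in log-phase growth in rich medium at 30 °C. Which residues the names stand for is not stated in the labels. They give 1 strain identifier per genotype, so a difference between isolates and an effect of the mutation cannot be told apart. Separate cultures for the 3 libraries of a strain are not stated either, and p-values then measure only the spread between these samples.

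PHO5 encodes the main repressible acid phosphatase, which is secreted and frees phosphate outside the cell. When phosphate is scarce, the transcription factor Pho4 enters the nucleus and, with Pho2, turns on PHO5 and the other genes of the regulon. In rich medium the Pho80-Pho85 kinase keeps Pho4 out of the nucleus, and positioned nucleosomes cover the PHO5 promoter. PHO5 has long served as a model of how nucleosomes keep a promoter closed.

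Pho4 binds the palindrome CACGTG, and a variant, CACGTT, that differs at its last base. The PHO5 promoter carries both, and the stretch from base -400 to base -101 is shown because it holds them. It lies on the minus strand of R64 (sacCer3) at chrII:431052-431351, read here from the RefSeq R64 genome, with both matches in capitals.
PHO5: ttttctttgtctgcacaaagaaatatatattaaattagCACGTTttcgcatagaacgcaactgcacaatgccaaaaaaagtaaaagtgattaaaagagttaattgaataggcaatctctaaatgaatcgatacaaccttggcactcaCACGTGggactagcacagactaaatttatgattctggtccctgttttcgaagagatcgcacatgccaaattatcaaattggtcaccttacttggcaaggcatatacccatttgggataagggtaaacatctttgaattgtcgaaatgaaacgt
CACGTT spans bases -362 to -357 and CACGTG bases -253 to -248, counted from the base before the start codon as -1.

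In the 600 bases before the start codon, searched on both strands, CACGTG was found in 8 of the 10 genes. All but PHO3 and PHM8 held it, against 434 of 5999 yeast promoters of the same length (7.23%). CACGTT was also found in 8 of the 10, all but PHO3 and SPL2, against 1127 of the 5999 (18.8%). PHO3 held neither. The window before PHO3 reaches into the end of PHO5, which lies 446 bases upstream on the same strand. SPL2 held CACGTG at 4 places. The 36-base stretches around a CACGTG match of 6 genes are set side by side, in capitals at the match, because the same letters precede genes that rose in the mutants (PHO5, PHO11 and PHO12) and genes that did not pass the test or had too few counts for one (PHO84, PHO89 and SPL2).
PHO5, chrII:431184-431219, minus strand: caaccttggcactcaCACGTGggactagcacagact
PHO11, chrI:225162-225197, plus strand: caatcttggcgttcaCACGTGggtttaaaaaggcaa
PHO12, chrVIII:551801-551836, plus strand: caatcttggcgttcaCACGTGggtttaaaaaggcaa
PHO84, chrXIII:26194-26229, minus strand: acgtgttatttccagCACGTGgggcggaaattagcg
PHO89, chrII:798825-798860, minus strand: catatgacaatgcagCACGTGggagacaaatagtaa
SPL2, chrVIII:375227-375262, minus strand: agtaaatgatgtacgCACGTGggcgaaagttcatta
PHO11 and PHO12 have the same 36 bases here. For PHO84 and SPL2, only 1 of several CACGTG matches is shown, the one followed by gg as in PHO5. PHO8 and VTC3, which also hold CACGTG and rose in spt6-R,KK, are not shown. A match is only a match of letters, and no binding was measured.

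**Figure D1:**
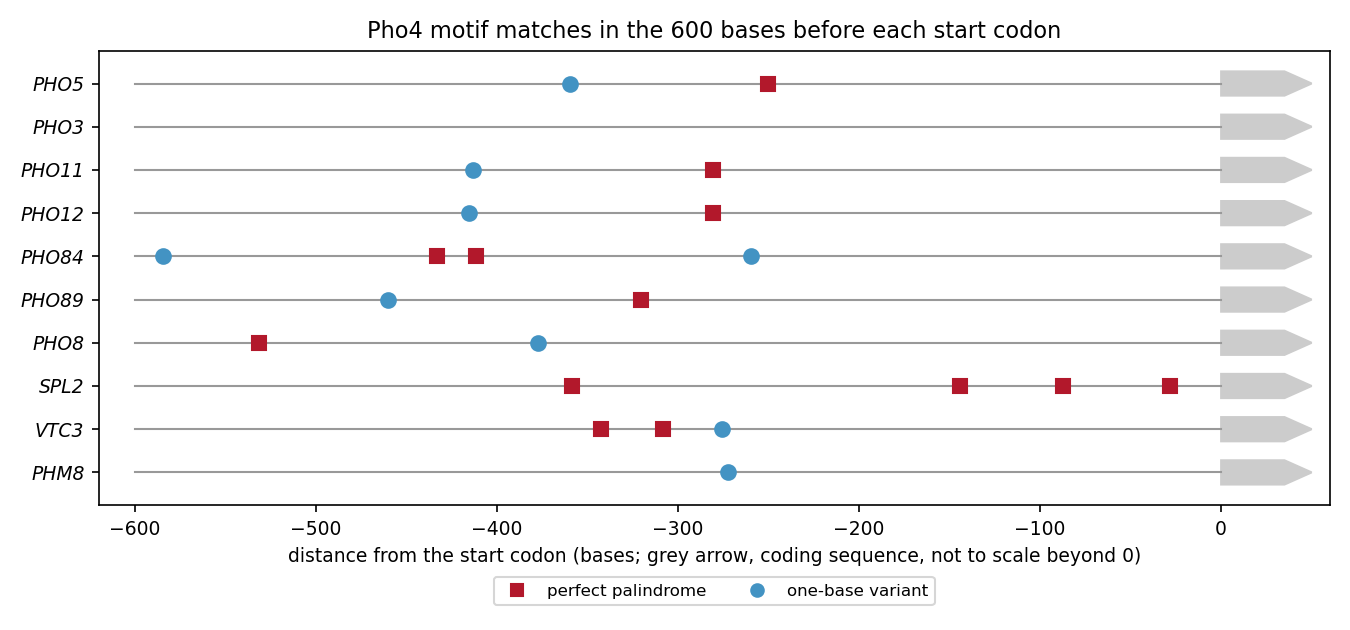
Matches to the Pho4 palindrome (squares) and its variant (circles) in the 600 bases before the start codon of each of the 10 genes, by distance from the start codon in bases. PHO3 has no match, and SPL2 has 4 palindromes and no variant.

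The libraries held 4860861 to 7803152 full-gene counts each, and 5618 genes passed the filter on low counts. SPL2, with 0 to 15 counts per library, fell below it, so 9 of the 10 genes were tested. Levels are given as CPM, the counts of a gene scaled to a common library size, with the SD over 3 libraries. Log2 fold changes come with their standard error and with the adjusted p of edgeR's quasi-likelihood test over all tested genes. SPT6 itself was lower in some mutants, with log2 fold changes of -0.89 ± 0.16 in spt6-R (adjusted p = 0.00245), -1.03 ± 0.16 in spt6-R,KK (adjusted p = 4.59e-05) and -0.45 ± 0.16 in rpb1-TPY,FSP (adjusted p = 0.0328). RPO21, which encodes Rpb1, passed in no strain.

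PHO5 (YBR093C, chromosome II 429548 to 430951, minus strand) did not pass in any of the 4 single mutants and was about 4 times higher in both double mutants. It had 39.9, 70.7 and 108 CPM in spt6-R,KK and 32.98, 72.8 and 92.01 CPM in rpb1-TPY,FSP, against 12.6, 23.2 and 15.5 CPM in WT. Every double-mutant library lay above every WT library. The spt6-R libraries had 16.2, 16.95 and 19.3 CPM and the spt6-KK libraries 13.6, 21.2 and 22.9 CPM. The rpb1-TPY libraries had 10.8, 10.9 and 20.01 CPM and the rpb1-FSP libraries 10.9, 14.3 and 13.4 CPM. All 4 single mutants overlapped WT.

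PHO5 rose by 2.09 ± 0.36 on the log2 scale in spt6-R,KK (4.25-fold, adjusted p = 0.000152), and in rpb1-TPY,FSP by 1.93 ± 0.36 (3.82-fold, adjusted p = 0.000331). Both calls held under each of the 13 alternatives run, with log2 fold changes of 1.69 to 2.39 and 1.597 to 2.27. The spt6-R strain gave 0.03 ± 0.38 (adjusted p = 0.972) and spt6-KK 0.16 ± 0.37 (adjusted p = 0.812). The rpb1 single mutants gave -0.31 ± 0.39 in rpb1-TPY (adjusted p = 1) and -0.41 ± 0.39 in rpb1-FSP (adjusted p = 0.667). The double mutants did not pass against each other (0.15 ± 0.33, adjusted p = 0.995). In order of their means, the strains ran from spt6-R,KK and rpb1-TPY,FSP over spt6-KK, spt6-R, WT and rpb1-TPY to rpb1-FSP. The only neighbours in that order whose ranges did not overlap were rpb1-TPY,FSP and spt6-KK.

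The design also asks whether a double mutant differs from the sum of its 2 single mutants on the log2 scale, a quantity called the interaction here. For the rpb1 changes the PHO5 interaction was 2.65 ± 0.53 (adjusted p = 0.00958), so PHO5 was 6.29 times higher in rpb1-TPY,FSP than its single mutants add up to, and this call held under each of 19 alternatives. For the spt6 changes the interaction was 1.90 ± 0.52, with an adjusted p of 0.0847. It passed without spt6-R,KK library 1 (2.18, adjusted p = 0.0347). It also passed without library 1 of both double mutants (2.21, adjusted p = 0.0031). Those 2 libraries had the lowest PHO5 level of their strains, 39.9 and 32.98 CPM. With the replicate number as a block in edgeR, PHO5 passed as well (1.84, adjusted p = 0.00936). None of the 9 genes passed the spt6 interaction in the main edgeR fit or in DESeq2, and 3 (PHO5, PHO3 and PHO84) had an unadjusted p under 0.05. Over all tested genes 3.19% passed the rpb1 interaction and 0.356% the spt6 interaction.

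**Figure D2:**
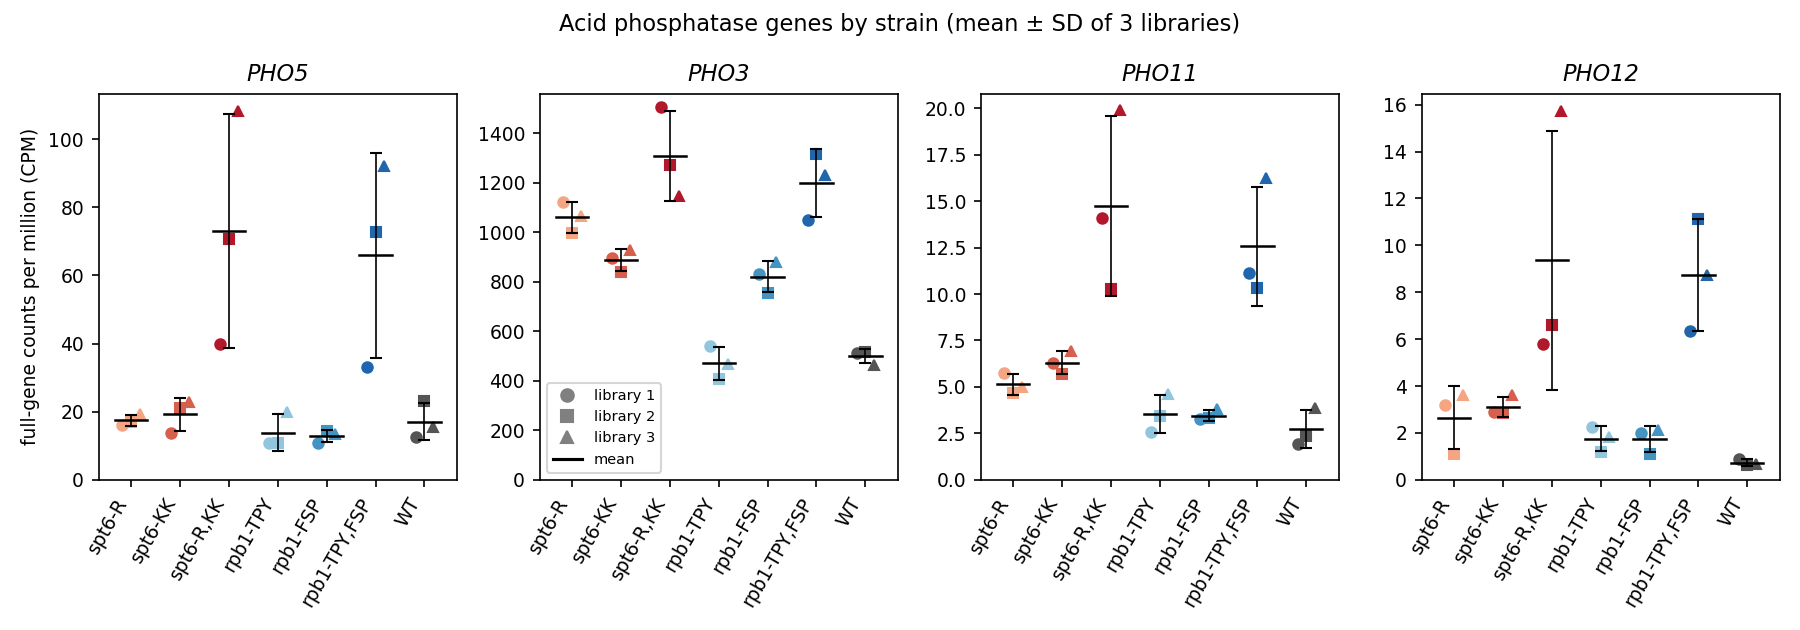
Level of PHO5, PHO3, PHO11 and PHO12 in CPM (vertical axis, separate scale per gene) in each library of the 6 mutants and WT; marker shapes give the library number, lines the mean and bars the SD of 3 libraries. PHO5 is above WT only in both double mutants, with libraries between 32.98 and 108 CPM, while PHO3 is above WT in every mutant but rpb1-TPY.

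PHO11 (YAR071W, chromosome I 225460 to 226863) and PHO12 (YHR215W, chromosome VIII 552099 to 553502) encode further repressible acid phosphatases. Their coding sequences of 1404 bases differ at 4 bases, and 87.2% of the 50-base windows of PHO12 occur unchanged in PHO11. A single read of 50 bases from such a window cannot be placed on one or the other. The libraries were read as pairs, and the share of pairs that cannot be placed was not computed. How reads with several matches were counted is not given in the sources used here, and the values of each gene alone are uncertain. For PHO12 the mid-gene counts summed to 7.54 times the full-gene counts, and for PHO11 to 1.85 times. The other 8 genes lay between 0.775 (PHO84) and 0.946 (PHO3), and the median of 5810 genes was 0.886.

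Both genes rose in both double mutants. PHO11 had 14.1, 10.3 and 19.9 CPM in spt6-R,KK and 11.1, 10.3 and 16.2 CPM in rpb1-TPY,FSP, against 1.96, 2.36 and 3.87 CPM in WT. Its log2 fold change was 2.48 ± 0.30 in spt6-R,KK (adjusted p = 1.79e-06) and 2.25 ± 0.30 in rpb1-TPY,FSP (adjusted p = 6.02e-06). PHO12 had 5.77, 6.61 and 15.7 CPM in spt6-R,KK and 6.36, 11.1 and 8.75 CPM in rpb1-TPY,FSP, against 0.902, 0.628 and 0.683 CPM in WT. The WT values of PHO12 rest on 6, 4 and 3 counts. Its log2 fold change was 3.63 ± 0.57 in spt6-R,KK (adjusted p = 9.05e-06) and 3.51 ± 0.57 in rpb1-TPY,FSP (adjusted p = 1.32e-05). Over the mid-gene counts the same changes of PHO12 were 2.64 ± 0.20 and 2.21 ± 0.20, so its fold fell to 6.23 in spt6-R,KK, against 12.4 over the full-gene counts.

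Unlike PHO5, this pair was higher in the spt6 single mutants as well. With the counts of PHO11 and PHO12 added up, an alternative chosen after the data were seen, the pair rose by 1.21 ± 0.31 in spt6-R (adjusted p = 0.0197) and 1.47 ± 0.30 in spt6-KK (adjusted p = 0.00345) on the log2 scale. The same sum rose by 2.83 ± 0.29 in spt6-R,KK (adjusted p = 2.51e-07) and 2.65 ± 0.29 in rpb1-TPY,FSP (adjusted p = 6e-07). It did not pass in rpb1-TPY (0.65 ± 0.32, adjusted p = 1) or rpb1-FSP (0.62 ± 0.32, adjusted p = 0.352). For the sum, the mid-gene counts gave 0.84 in spt6-R, 1.00 in spt6-KK and 2.61 in spt6-R,KK, with 2.20 in rpb1-TPY,FSP, all passing. In rpb1-TPY the sum turned to -0.12 over the mid-gene counts, again without passing. The difference in response between PHO5 and the pair was not tested.

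PHO11 had 5.77, 4.66 and 4.99 CPM in spt6-R and 6.31, 5.70 and 6.91 CPM in spt6-KK, all above WT. PHO12 had 3.21, 1.12 and 3.63 CPM in spt6-R and 2.90, 2.85 and 3.60 CPM in spt6-KK, again all above WT. In the rpb1 single mutants PHO11 overlapped WT. There PHO12 lay above WT too, at 1.21 to 2.25 CPM in rpb1-TPY and 1.10 to 2.14 CPM in rpb1-FSP, without passing. Over the mid-gene counts PHO12 overlapped WT in both of these strains. Taken singly, PHO11 passed in spt6-KK (1.25 ± 0.31, adjusted p = 0.011) but not in spt6-R (0.96 ± 0.32, adjusted p = 0.0642), where the mid-gene counts passed (0.95 ± 0.23, adjusted p = 0.0183; 3.71% of all genes rose over these counts). PHO12 passed in spt6-R (1.83 ± 0.60, adjusted p = 0.047) and spt6-KK (2.03 ± 0.59, adjusted p = 0.0178). Over the mid-gene counts PHO12 was at 0.79 ± 0.21 in spt6-R (adjusted p = 0.0277) and 0.99 ± 0.21 in spt6-KK (adjusted p = 0.00459), folds of 1.73 and 1.98, against 3.56 and 4.09 over the full-gene counts. The spt6-R call of PHO12 was lost when any library of WT, or library 1 or 3 of spt6-R, was left out (adjusted p of 0.0714 to 0.183). The spt6-KK call of PHO11 ended when WT library 1 (adjusted p = 0.0575) or 2 (0.0597) was left out. That of PHO12 ended when WT library 2 (0.0777) or 3 (0.0575), or spt6-KK library 3 (0.0609), was left out.

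For the rpb1 changes the interaction of the summed pair was 1.38 ± 0.42 over full-gene counts (adjusted p = 0.0814) and 1.87 ± 0.27 over mid-gene counts (adjusted p = 0.0015). Taken singly over mid-gene counts, PHO11 (1.76 ± 0.33, adjusted p = 0.00606) and PHO12 (1.94 ± 0.30, adjusted p = 0.0022) passed it as well, where 3.02% of all genes passed. For the spt6 changes the sum gave 0.15 ± 0.40 (adjusted p = 0.891) over full-gene counts and 0.77 ± 0.26 (adjusted p = 0.162) over mid-gene counts. PHO5, PHO11 and PHO12 were the 3 of the 9 tested genes whose 6 double-mutant libraries all lay above the 15 other libraries. Over all tested genes 4.09% did so.

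PHO3 (YBR092C, chromosome II 427698 to 429101, minus strand) lies next to PHO5 and encodes an acid phosphatase that is made when phosphate is plentiful and is repressed by thiamine. It rose in 5 of the 6 mutants, single mutants included. It had 1121, 996 and 1067 CPM in spt6-R, 897, 840 and 929 CPM in spt6-KK and 1506, 1272 and 1147 CPM in spt6-R,KK, against 514, 518 and 466 CPM in WT. All 9 spt6 libraries lay above WT. It had 540, 407 and 466 CPM in rpb1-TPY, 830, 754 and 879 CPM in rpb1-FSP and 1050, 1316 and 1233 CPM in rpb1-TPY,FSP. Among these, the rpb1-TPY libraries alone overlapped WT.

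The log2 fold changes of PHO3 were 1.09 ± 0.12 in spt6-R (adjusted p = 2.21e-05), 0.83 ± 0.12 in spt6-KK (adjusted p = 0.000279) and 1.39 ± 0.12 in spt6-R,KK (adjusted p = 7.63e-08). In the rpb1 mutants they were 0.72 ± 0.12 in rpb1-FSP (adjusted p = 0.00219) and 1.26 ± 0.12 in rpb1-TPY,FSP (adjusted p = 2.23e-07), with -0.08 ± 0.12 in rpb1-TPY (adjusted p = 1). The 5 calls held under each of the 13 alternatives. The rpb1 interaction was 0.63 ± 0.17 (adjusted p = 0.0491). It passed in 5 of 19 alternatives, and over the mid-gene counts it was 0.56 ± 0.18 (adjusted p = 0.0945). The spt6 interaction was -0.53 ± 0.17 (adjusted p = 0.147). Without library 1 of both double mutants it was -0.62, with an adjusted p of 0.0408.

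Per kilobase of coding sequence PHO3 was far above PHO5 in every strain. PHO3 had 932 ± 130 CPM per kilobase in spt6-R,KK and 855 ± 97.2 in rpb1-TPY,FSP, against 356 ± 20.6 in WT. PHO5 had 52.0 ± 24.4 CPM per kilobase in spt6-R,KK and 47.0 ± 21.5 in rpb1-TPY,FSP, against 12.2 ± 3.91 in WT. The coding sequences are 86.5% identical without gaps, and 8.71% of the 50-base windows of PHO3 occur in PHO5. In spt6-R, where PHO3 was 2.12 times WT, PHO5 was 1.02 times WT.

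Since thiamine represses PHO3, 16 genes of thiamine synthesis and uptake were listed beside it. In spt6-R,KK 10 of the 16 rose and none fell, where 19.3% of all tested genes rose and 17.5% fell, and the median log2 fold change was 1.00 against 0.02 over all tested genes. In rpb1-TPY,FSP 10 rose and none fell, where 18.8% of all tested genes rose and 16.4% fell, with a median of 0.77 against 0.06. In the mid-gene counts 9 rose in each. THI5, THI11, THI12 and THI13, which make the pyrimidine part of thiamine, are near-identical copies, so their counts are uncertain. Several of the genes that rose were also near the floor in WT. The WT libraries together held 2 counts of THI5, 6 of THI12, 10 of THI13, 14 of SNZ3, 23 of SNZ2 and 27 of THI11. THI13 rose by 2.69 ± 0.58 in spt6-R,KK (adjusted p = 0.000368) and 2.30 ± 0.58 in rpb1-TPY,FSP (adjusted p = 0.00197). THI4, for the thiazole part of thiamine and chosen after its values were seen because it has no such copy, rose by 1.17 ± 0.25 in spt6-R,KK (adjusted p = 0.000984) and 0.83 ± 0.25 in rpb1-TPY,FSP (adjusted p = 0.0138). In the single mutants 1 gene passed in spt6-R (THI13, 1.87 ± 0.60, adjusted p = 0.0416) and 1 in spt6-KK (SNZ2, 1.223 ± 0.37, adjusted p = 0.0293). None passed in either rpb1 single mutant. Over all tested genes 4.02% rose in spt6-R and 6.35% in spt6-KK, so 1 of 16 is near those shares. THI13 did not pass in spt6-R over the mid-gene counts (0.98 ± 0.45, adjusted p = 0.173).

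PHO84 and PHO89 encode the phosphate transporters that work with high affinity, PHO84 with protons and PHO89 with sodium. Neither passed in any mutant, although both have Pho4 matches in their promoters. PHO84 (YML123C, chromosome XIII 24037 to 25800, minus strand) had 6.41, 4.47 and 5.29 CPM in spt6-R, 7.57, 6.38 and 3.89 CPM in spt6-KK and 3.53, 13.6 and 8.31 CPM in spt6-R,KK. It had 3.85, 11.9 and 21.3 CPM in rpb1-TPY, 3.09, 4.25 and 10.6 CPM in rpb1-FSP and 9.12, 10.02 and 5.08 CPM in rpb1-TPY,FSP. WT had 5.26, 23.6 and 16.4 CPM, with library 1 far below the other two, and every mutant overlapped WT.

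The log2 fold changes of PHO84 were all below 0, from -1.47 ± 0.59 in spt6-R (adjusted p = 0.121) and -1.32 ± 0.56 in spt6-KK (adjusted p = 0.119) up to the -0.28 ± 0.54 of rpb1-TPY (adjusted p = 1). The double mutants gave -0.83 ± 0.55 (spt6-R,KK, adjusted p = 0.252) and -0.89 ± 0.55 (rpb1-TPY,FSP, adjusted p = 0.216), and rpb1-FSP gave -1.32 ± 0.58 (adjusted p = 0.251). Without WT library 1, PHO84 passed in spt6-R (-1.89, adjusted p = 0.0423) and spt6-KK (-1.75, adjusted p = 0.049). An antisense RNA is annotated across PHO84. The mid-gene counts, which hold sense reads, gave -1.47 in spt6-R and -1.34 in spt6-KK, again without passing. PHO89 (YBR296C, chromosome II 796798 to 798522, minus strand) had 0.909 to 8.93 CPM per library. On the log2 scale its lowest change was -0.70 ± 0.70 in spt6-R (adjusted p = 0.557) and its highest 0.85 ± 0.61 in rpb1-TPY (adjusted p = 1). The double mutants gave 0.83 ± 0.61 in spt6-R,KK (adjusted p = 0.291) and 0.66 ± 0.60 in rpb1-TPY,FSP (adjusted p = 0.411).

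SPL2 (YHR136C, chromosome VIII 374654 to 375100, minus strand) encodes a small protein that restrains low-affinity phosphate uptake when phosphate is scarce. It was low in every strain, with means of 0.793 ± 0.438 CPM in spt6-R,KK and 1.36 ± 0.365 CPM in rpb1-TPY,FSP, against 0.95 ± 0.403 CPM in WT. The counts were 2, 5 and 8 in spt6-R,KK and 15, 6 and 11 in rpb1-TPY,FSP, against 5, 9 and 3 in WT. In rpb1-FSP they were 3, 1 and 2, the 1 strain with all 3 libraries below the lowest WT library in CPM; in 4 other mutants 1 or 2 libraries were below it. The 0 counts of rpb1-TPY library 3 allow up to 0.458 CPM of its unscaled total, by counting error alone. At this depth SPL2 had too few counts for a test.

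**Figure D3:**
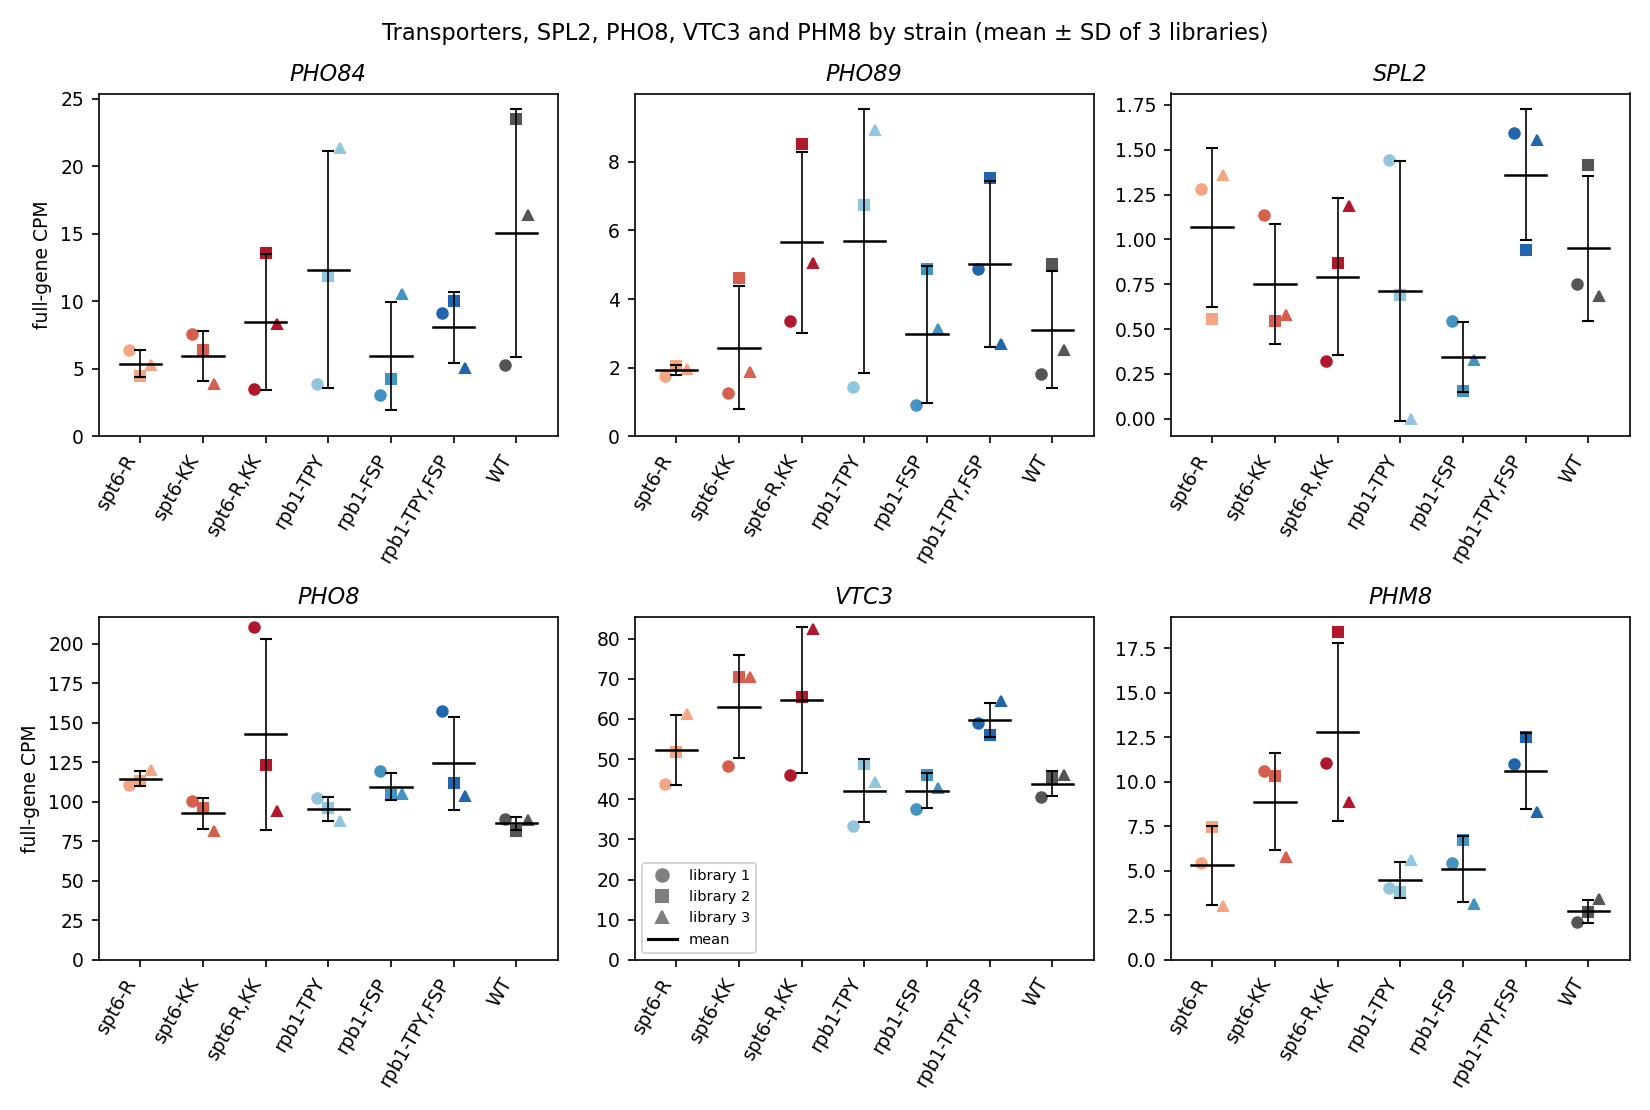
Level of PHO84, PHO89, SPL2, PHO8, VTC3 and PHM8 in CPM (vertical axis, separate scale per gene) in each library of the 6 mutants and WT; marker shapes give the library number, lines the mean and bars the SD of 3 libraries. WT libraries of PHO84 span 5.26 to 23.6 CPM and overlap every mutant, while PHM8 is above WT in both double mutants.

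PHM8 (YER037W, chromosome V 225889 to 226854) encodes a phosphatase that frees phosphate from nucleotides and lysophosphatidic acid, and it rose in both double mutants and in spt6-KK. It had 11.1, 18.4 and 8.90 CPM in spt6-R,KK and 11.03, 12.5 and 8.33 CPM in rpb1-TPY,FSP, against 2.11, 2.67 and 3.42 CPM in WT. The spt6-KK libraries had 10.6, 10.3 and 5.76 CPM. None of these 3 strains overlapped WT, and neither did rpb1-TPY, at 3.80 to 5.62 CPM, while spt6-R and rpb1-FSP did. The log2 fold change was 2.25 ± 0.39 in spt6-R,KK (adjusted p = 0.0001), 1.98 ± 0.39 in rpb1-TPY,FSP (adjusted p = 0.000371) and 1.73 ± 0.39 in spt6-KK (adjusted p = 0.00597), and these 3 calls held under each of the 13 alternatives. It did not pass in spt6-R (0.97 ± 0.41, adjusted p = 0.14), rpb1-TPY (0.74 ± 0.42, adjusted p = 1) or rpb1-FSP (0.93 ± 0.41, adjusted p = 0.251). Its interactions were -0.45 ± 0.52 for the spt6 changes (adjusted p = 0.712) and 0.31 ± 0.54 for the rpb1 changes (adjusted p = 0.836).

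PHO8 (YDR481C, chromosome IV 1418550 to 1420250, minus strand) encodes the vacuolar alkaline phosphatase. It had 210, 123 and 94.3 CPM in spt6-R,KK and 158, 112 and 103 CPM in rpb1-TPY,FSP, against 88.9, 81.8 and 88.6 CPM in WT. Library 1 of each double mutant, where PHO5 was lowest, had the highest PHO8 level of its strain. The log2 fold change of PHO8 was 0.72 ± 0.20 in spt6-R,KK (adjusted p = 0.00839) and 0.53 ± 0.20 in rpb1-TPY,FSP (adjusted p = 0.0484). Without spt6-R,KK library 1 the first was 0.34, with an adjusted p of 0.0923. The second was lost without any 1 of the WT libraries or without library 1 or 2 of rpb1-TPY,FSP (0.32 to 0.57, adjusted p of 0.0604 to 0.248). It was also lost with RLE size factors (adjusted p = 0.0645), with DESeq2 (0.0556) and with no filter on low counts (0.0539). PHO8 had 111, 113 and 120 CPM in spt6-R and 119, 104 and 105 CPM in rpb1-FSP, all above WT, but did not pass in spt6-R (0.41 ± 0.20, adjusted p = 0.214) or rpb1-FSP (0.34 ± 0.20, adjusted p = 0.434). With only the mutant and WT in the fit, both passed (adjusted p = 0.0105 in spt6-R and 0.0489 in rpb1-FSP), and spt6-R passed without library 1 of both double mutants (0.0201). With those 2 libraries left out, PHO8 was at 0.33 in spt6-R,KK (adjusted p = 0.042) and 0.32 in rpb1-TPY,FSP (adjusted p = 0.0488).

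VTC3 (YPL019C, chromosome XVI 514511 to 517018, minus strand) encodes a subunit of the vacuolar complex that makes polyphosphate. It had 46.0, 65.4 and 82.5 CPM in spt6-R,KK, 48.2, 70.5 and 70.4 CPM in spt6-KK and 58.9, 56.1 and 64.3 CPM in rpb1-TPY,FSP, against 40.5, 45.2 and 46.0 CPM in WT. The lowest spt6-R,KK library lay just above the highest WT library. It passed in spt6-R,KK (0.56 ± 0.19, adjusted p = 0.0265), but not in spt6-KK (0.52 ± 0.19, adjusted p = 0.0723) or rpb1-TPY,FSP (0.45 ± 0.19, adjusted p = 0.0752). The spt6-R,KK call ended without WT library 1 (adjusted p = 0.0886) and without WT library 2 (0.0581). It also ended without library 2 of the mutant (0.063) and without its library 3 (0.175, log2 fold change 0.35). With only spt6-R,KK and WT in the fit, VTC3 (adjusted p = 0.0624) and PHO8 (0.0597) both missed the threshold in spt6-R,KK. Other settings added VTC3 calls. The spt6-KK strain passed without its library 1 (0.68, adjusted p = 0.0218) and without library 1 of both double mutants (0.50, adjusted p = 0.0416). The rpb1-TPY,FSP strain passed with only that strain and WT in the fit (0.44, adjusted p = 0.0218). With the replicate number as a block, VTC3 passed in spt6-KK (0.50, adjusted p = 0.0159) and rpb1-TPY,FSP (0.45, adjusted p = 0.012).

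**Figure D4:**
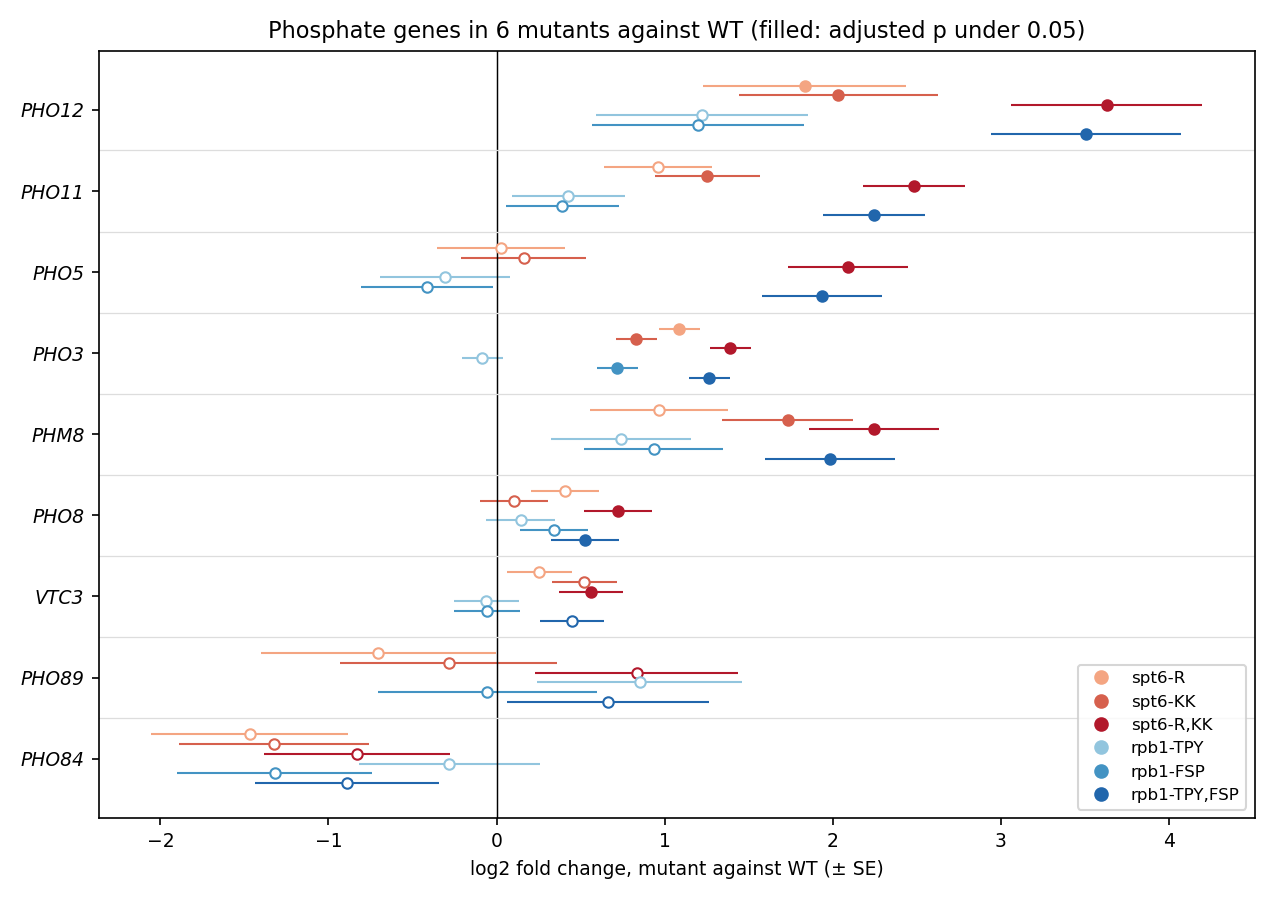
Log2 fold change of the 9 tested genes in each mutant against WT (horizontal axis, with SE bars); filled points have an adjusted p under 0.05. PHO5 lies near 0 in the 4 single mutants and at 2.09 and 1.93 in the double mutants, and no gene passed below 0.

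Counted together, 7 of the 9 tested genes rose in spt6-R,KK and 6 in rpb1-TPY,FSP, where 19.3% and 18.8% of all tested genes rose. The near-identical PHO11 and PHO12 are counted as separate genes here and in the tallies below. The members' median log2 fold change was 1.39 in spt6-R,KK and 1.26 in rpb1-TPY,FSP, against 0.02 and 0.06 over all tested genes. Both member medians are the values of PHO3. In spt6-KK 4 rose (PHO3, PHO11, PHO12 and PHM8; 6.35% of all tested genes rose), in spt6-R 2 (PHO3 and PHO12; 4.02%), in rpb1-FSP 1 (PHO3; 0.890%) and in rpb1-TPY none. In rpb1-TPY 0.0534% of all tested genes rose, and no member had an unadjusted p under 0.05 there; DESeq2 and the mid-gene counts, over which 0.106% of all genes passed, also called none. None of the 9 fell in any mutant, where 17.5% of all tested genes fell in spt6-R,KK and 16.4% fell in rpb1-TPY,FSP, with 6.94% in spt6-KK, 4.47% in spt6-R, 1.46% in rpb1-FSP and 0% in rpb1-TPY. Between the double mutants no member passed, nor did DESeq2 call one, and 0.0356% of all tested genes passed; none of the 9 had an unadjusted p under 0.05 over the full-gene counts. Over the mid-gene counts 1 did, PHO12, which was 0.43 ± 0.18 higher in spt6-R,KK on the log2 scale with no overlap of libraries and did not pass (adjusted p = 0.989). The libraries of the mutant all lay above those of WT for 7 of the 9 in spt6-R,KK (23.4% of all tested genes) and 7 in rpb1-TPY,FSP (26.2%). All mutants share the same WT libraries. A CPM is a share of the counted RNA, so fewer cells that use a gene and less of its RNA per cell cannot be told apart.

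In the authors' deposited table of DESeq2 comparisons on full-gene counts, 7 members were higher in spt6-R,KK and 6 in rpb1-TPY,FSP at an adjusted p under 0.05. The authors' deposited table gives 4 in spt6-KK, 1 in spt6-R, 1 in rpb1-FSP and 0 in rpb1-TPY. It gives no adjusted p for 5 members in spt6-R and 6 in rpb1-FSP. The authors' mid-gene comparisons gave 3 members in spt6-R and the same numbers in the other mutants, again with some adjusted p missing. The share of all genes called was computed for neither, so these counts have no background beside them. For PHO5 the authors' full-gene comparisons give log2 fold changes of 1.61 in spt6-R,KK and 1.49 in rpb1-TPY,FSP. These lie below the 2.09 and 1.93 of the edgeR fit and below all 13 alternatives. For PHO12 in spt6-R,KK they give 2.13, against 3.63 in the edgeR fit. The reason for these differences was not tested.

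**Figure D5:**
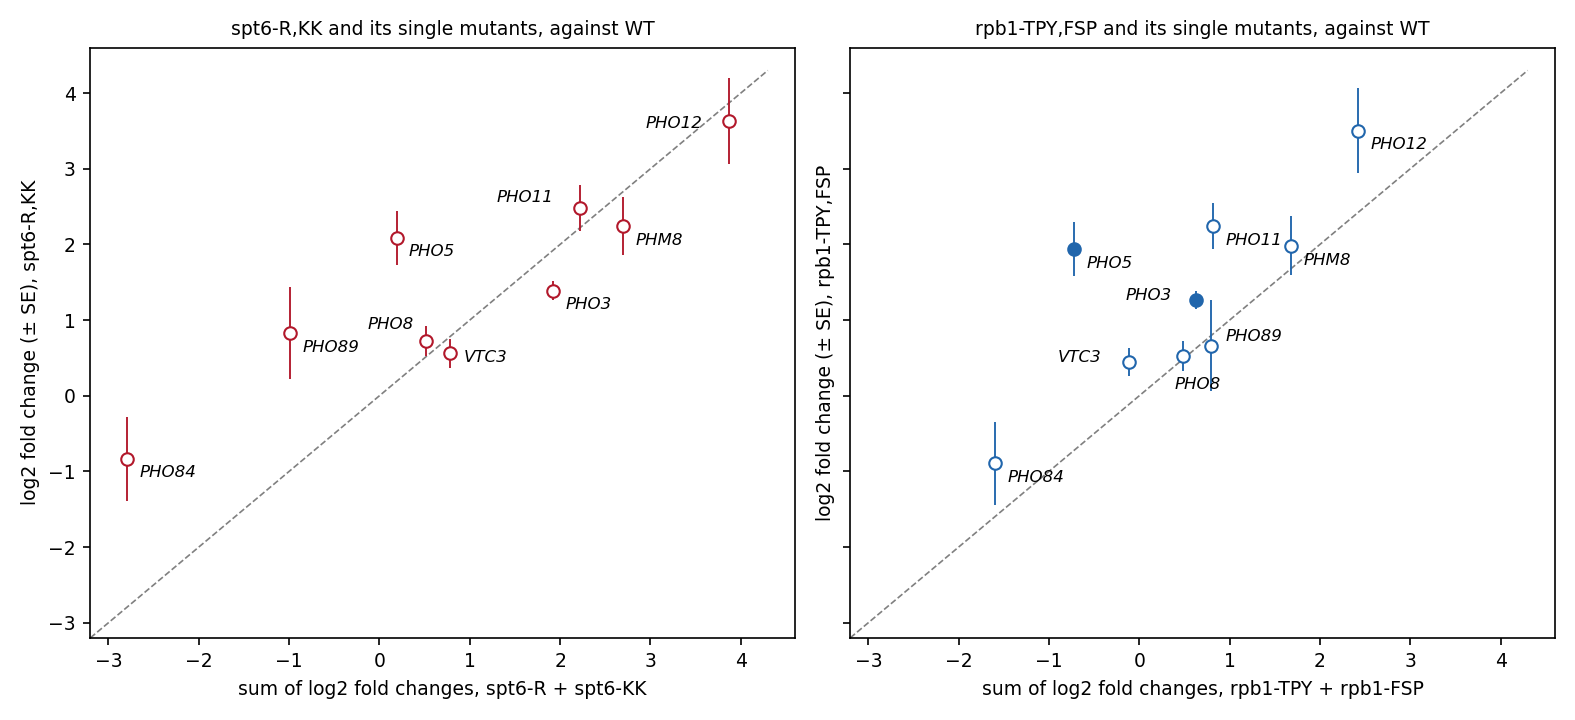
Log2 fold change of each double mutant against WT (vertical axis, with SE) over the sum of the log2 fold changes of its 2 single mutants (horizontal axis), for the 9 tested genes; the dashed line marks equality and filled points passed the interaction test. PHO5 lies 2.65 above the line for the rpb1 changes and 1.90 above it for the spt6 changes, where none of the 9 passed.

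Of 8 further Pho4 targets, 7 could be tested (not HOR2). In spt6-R,KK 1 of the 7 rose and none fell, at a median change of 0.00 (log2), and in rpb1-TPY,FSP 1 rose and none fell, with a median of -0.09. Over all tested genes 19.3% rose in spt6-R,KK and 18.8% in rpb1-TPY,FSP, so the list's share called is near that of all genes. The gene that rose in both was GIT1, a glycerophosphoinositol transporter, with 27.03 ± 1.26 CPM in spt6-R,KK and 20.1 ± 2.00 CPM in rpb1-TPY,FSP, against 10.3 ± 1.92 CPM in WT. Its log2 fold change was 1.39 ± 0.18 in spt6-R,KK (adjusted p = 5.98e-06), 0.96 ± 0.18 in rpb1-TPY,FSP (adjusted p = 0.000335) and 0.70 ± 0.19 in spt6-R (adjusted p = 0.0246). In spt6-KK, VTC2, a polyphosphate synthesis subunit, passed at 0.38 ± 0.12 (adjusted p = 0.034), but not over the mid-gene counts (0.37 ± 0.13, adjusted p = 0.061). The other 5, PHO81, PHM6, VTC1, VTC4 and GDE1, passed in no mutant. PHO81, which inhibits Pho80-Pho85 and is a Pho4 target itself, had 56.9 ± 4.44 CPM in spt6-R,KK and 53.7 ± 2.06 CPM in rpb1-TPY,FSP, against 55.0 ± 10.1 CPM in WT.

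Among 12 genes of phosphate signalling and Pho4 control, 11 could be tested (not PHO92). PHO4 itself was the 1 gene that passed, lower in spt6-KK and rpb1-TPY,FSP, where 6.94% and 16.4% of all tested genes fell, so 1 of 11 is near or below those shares. It had 12.5 ± 4.72 CPM in spt6-KK and 14.1 ± 1.77 CPM in rpb1-TPY,FSP, against 22.7 ± 5.04 CPM in WT. Its log2 fold change was -0.85 ± 0.25 in spt6-KK (adjusted p = 0.0308), and it was -0.69 ± 0.25 in rpb1-TPY,FSP (adjusted p = 0.0379) and -0.64 ± 0.25 in spt6-R,KK, which did not pass (adjusted p = 0.0508). The median over the 11 genes was -0.14 in spt6-R,KK and -0.17 in rpb1-TPY,FSP.

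Of 11 genes for low-affinity uptake, phosphate export and polyphosphate breakdown, 9 could be tested (not VTC5 or PPN2), and 2 rose and 2 fell in each double mutant, shares near those of all tested genes (19.3% higher and 17.5% lower in spt6-R,KK, 18.8% and 16.4% in rpb1-TPY,FSP). PHO87, a low-affinity phosphate transporter, fell by 0.71 ± 0.11 in spt6-R,KK (adjusted p = 7.39e-05) and by 1.02 ± 0.11 in rpb1-TPY,FSP (adjusted p = 1.2e-06) on the log2 scale. PHO88, a membrane protein of the endoplasmic reticulum, fell by 0.75 ± 0.13 in spt6-R,KK (adjusted p = 0.000128) and by 0.91 ± 0.13 in rpb1-TPY,FSP (adjusted p = 1.76e-05). PPN1, an endopolyphosphatase, rose by 0.51 ± 0.14 in spt6-R,KK (adjusted p = 0.00932) and 0.48 ± 0.14 in rpb1-TPY,FSP (adjusted p = 0.013). PHO91, a vacuolar phosphate transporter, rose by 0.43 ± 0.14 in spt6-R,KK (adjusted p = 0.0204) and 0.38 ± 0.14 in rpb1-TPY,FSP (adjusted p = 0.0409; over the mid-gene counts the second was 0.39 ± 0.15, adjusted p = 0.0504). In spt6-KK, PHO87 (-0.69 ± 0.11, adjusted p = 0.000802) and PHO88 (-0.44 ± 0.13, adjusted p = 0.0282) fell. PPN1 rose there (0.46 ± 0.14, adjusted p = 0.0405). Over all tested genes 6.94% fell and 6.35% rose in spt6-KK. In spt6-R, PHO87 fell by 0.39 ± 0.11 (adjusted p = 0.0394), where 4.47% of all tested genes fell. Over the mid-gene counts neither PPN1 in spt6-KK (0.43 ± 0.15, adjusted p = 0.0602) nor PHO87 in spt6-R (-0.33 ± 0.14, adjusted p = 0.149) passed.

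The 5 genes whose log2 CPM over the 21 libraries was most like that of PHO5, among 5372 with a mean of at least 20 counts, were AAD6 (Pearson's r = 0.945), HBT1 (0.935), ARO9 (0.935), PAD1 (0.92) and FMP45 (0.917). The median r over these candidates was 0.02. Among the tested members the highest r with PHO5 was that of PHO11 (0.867). For PHO84 the 5 were ELA1 (0.761), ENP1 (0.692), URK1 (0.688), RSA1 (0.665) and FMP10 (0.642). PHO89, left out as a member, had an r of 0.648 with PHO84, above that of FMP10. These correlations describe the 21 libraries, which share strains and WT, and carry no test.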

How the data were processed

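Ribosomal RNA was depleted from total RNA, and stranded libraries were sequenced as pairs of 50-base reads, per the labels' protocols. The submitters' processing notes name cutadapt 1.16, STAR 2.6.1b, featureCounts 1.6.3, DESeq2 1.22.2 and the R64 (sacCer3) build. The deposited counts are raw reads per gene and library. Full-gene counts hold all signal in a gene, and mid-gene counts sense reads over its middle 70%, which the authors used for their main analyses, per the file headers. How reads with several matches were counted is not given in the sources used here. The authors also deposited DESeq2 comparisons, as log2 fold changes with adjusted p-values.

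Full-gene counts were fitted with edgeR 4.0.16 (R 4.3.3): filterByExpr (5618 genes kept, 205 left out), TMM scaling, 1 model over all 21 libraries with a term for strain alone, and the quasi-likelihood test with Benjamini-Hochberg adjustment over all tested genes, called under 0.05. Levels are TMM-scaled CPM. An interaction is the double mutant minus both single mutants plus WT, on the log2 scale. The common biological coefficient of variation was 0.154. None of the 210 pairs of libraries was identical.

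The members, gene lists and tests were chosen with earlier results of these data known. All 10 members are named. Of the other lists, up to 4 called genes with the largest changes per comparison could be named. So could the 5 genes outside the members most like PHO5 and like PHO84. PHO81, THI4 and the genes named as not passing fall outside that rule and were named after their values were seen. Promoter and coding sequences were read from the RefSeq R64 genome by coordinates, and 5623 of 5823 identifiers matched its annotation. Same-numbered libraries of spt6-R,KK and rpb1-TPY,FSP deviated together (correlations of 0.367, 0.442 and 0.376). The main model holds no term for the replicate number, and a fit with it as a block was run as an alternative. Against WT the correlations ran from -0.417 to 0.202.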

Additional observations from a re-analysis of the deposited data

Results flagged for a closer look

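By the interaction test itself, the effect of 1 rpb1 change differed by the presence of the other for 2 of the 9 tested members. Over all tested genes 3.19% passed this test. Of the 2 members, PHO5 had the larger interaction, at 2.65 ± 0.53 on the log2 scale (adjusted p = 0.00958, edgeR). PHO5 had 65.9 ± 30.1 CPM in rpb1-TPY,FSP, against 13.9 ± 5.31 CPM in rpb1-TPY, 12.9 ± 1.76 CPM in rpb1-FSP and 17.1 ± 5.49 CPM in WT (SD, n = 3 each). All 3 double-mutant libraries lay above all 9 of the others. The lowest adjusted p over 19 alternatives was 0.000114 and the highest 0.0345.

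PHO3 followed at 0.63 ± 0.17 (adjusted p = 0.0491, edgeR), a value close to the threshold. PHO3 had 1200 ± 136 CPM in rpb1-TPY,FSP, against 471 ± 66.9 CPM in rpb1-TPY, 821 ± 63.1 CPM in rpb1-FSP and 499 ± 28.9 CPM in WT (SD, n = 3 each). Over 19 alternatives its adjusted p ran from 0.00759 to 0.146. Over the mid-gene counts PHO3 did not pass (adjusted p = 0.0945, edgeR), while PHO5, PHO11 and PHO12 did, where 3.02% of all genes passed.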

How the results depend on the processing

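No member's call changed direction under any alternative. Counts of members that passed moved by over 1.5 times in these cases. With only the strains compared in the fit, rpb1-FSP had 2 (with PHO8) and the rpb1 interaction 1 (without PHO3). RLE size factors and the fit with no filter on low counts also left 1 in the rpb1 interaction, again without PHO3; the cause was not tested. With library 1 of both double mutants left out, the spt6 interaction had 2 (PHO5 and PHO3). Leaving out single libraries gave 1 to 2 members in spt6-R, 2 to 5 in spt6-KK, 0 to 1 in the spt6 interaction and 1 to 2 in the rpb1 interaction. Of 594 log2 fold changes with 1 library left out, 560 stayed on their side of the threshold, 30 lost and 4 gained a call. A fit with the replicate number as a block gave 3 members in spt6-R, 5 in spt6-KK and 7 in each double mutant, with 1 in the spt6 interaction (PHO5, 1.84, adjusted p = 0.00936) and 3 in the rpb1 interaction (PHO11 added). The block changed no call between the double mutants. Shares of all genes called were not computed under these settings, so the shifts cannot be read as particular to the members. Against WT, same-numbered libraries gave correlations of both signs, although 18 of 21 libraries correlated best with libraries of their own number. Whether the numbers pair the strains of an interaction was not tested. Low counts limit PHO12, PHO89 and SPL2.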

Other observations

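Of 17 neighbours in the annotation 13 could be tested, and in spt6-R,KK 6 of them rose and 3 fell, where 19.3% of all tested genes rose and 17.5% fell, with a median log2 fold change of 0.23 against 0.02. In rpb1-TPY,FSP 6 rose and 4 fell, where 18.8% rose and 16.4% fell, with a median of 0.10 against 0.06. Over the mid-gene counts KRE29 did not pass in rpb1-TPY,FSP (0.41 ± 0.17, adjusted p = 0.0671, edgeR), which leaves 5 that rose. IMD2, an inosine monophosphate dehydrogenase gene that starts 893 bases beyond PHO12, was among them. IMD2 had 354 ± 41.0 CPM in spt6-R, 373 ± 44.7 CPM in spt6-KK, 525 ± 18.7 CPM in spt6-R,KK, 290 ± 25.6 CPM in rpb1-FSP and 486 ± 78.5 CPM in rpb1-TPY,FSP, against 39.0 ± 11.5 CPM in WT (SD, n = 3 each). Its log2 fold change was 3.76 ± 0.16 in spt6-R,KK (adjusted p = 8.3e-12, edgeR) and 3.65 ± 0.16 in rpb1-TPY,FSP (adjusted p = 2.71e-11, edgeR). In rpb1-TPY it had 47.8 ± 3.34 CPM and did not pass (0.30 ± 0.17, adjusted p = 1, edgeR). The spt6 interaction of IMD2 was -2.70 ± 0.23 (adjusted p = 4.65e-07, edgeR), so the double mutant lay below the sum of its single mutants.

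ARO9, an aromatic aminotransferase gene 608 bases from SPL2, was also among the 5 genes most like PHO5. It had 119 ± 28.3 CPM in spt6-R,KK and 114 ± 71.5 CPM in rpb1-TPY,FSP, against 26.8 ± 3.63 CPM in WT (SD, n = 3 each). ARO9 passed the rpb1 interaction (2.65 ± 0.52, adjusted p = 0.00856, edgeR) and missed the spt6 interaction (2.18 ± 0.51, adjusted p = 0.0593, edgeR). SPL2 beside it stayed at 0 to 15 counts per library. TIM12, the gene after PHO3, fell by 0.97 ± 0.19 in spt6-R,KK (adjusted p = 0.000433, edgeR) and by 0.60 ± 0.18 in rpb1-TPY,FSP (adjusted p = 0.0139, edgeR), while PHO3 rose in both.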
